A study of Mus musculus with 6 samples.

Results

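The genes described here carry the names of mitochondrial ribosomal proteins. They are the protein-coding genes of the count table whose symbol is Mrpl or Mrps followed by a number and at most 1 letter. Of the 54532 genes in the table, 78 met this rule, 49 named for the large subunit (Mrpl) and 29 named for the small subunit (Mrps). These are families of names, and the proteins of the Mrps genes Mrps18a and Mrps30 lie in the large subunit. Left ventricular RNA was measured 4 weeks after aortic banding (AB), a surgical narrowing of the aorta that loads the heart with pressure. Male mice aged 8 to 10 weeks at surgery were used, and both groups were banded, so no unbanded heart enters any value below. The 3 TG hearts were of the genotype HINT2CTG-Myh6Cre. They carried human HINT2, which encodes a mitochondrial nucleotide-binding hydrolase, driven by CAG once a loxP-flanked stop has been removed, and a tamoxifen-activated Cre under the cardiomyocyte promoter Myh6. Tamoxifen was injected at 5 mg/kg/d for 7 days. The 3 NTG hearts came from mice labelled C57BL/6J. Whether these controls carried Cre or received tamoxifen is not given in the sources used here, so effects of either and of HINT2 cannot be told apart. Each library was poly-A selected RNA of 1 heart.

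Mitochondria keep their own ribosome, which translates the few mRNAs of the mitochondrial genome into core subunits of the respiratory chain and ATP synthase. All of its proteins are encoded in the nucleus, made in the cytosol and imported. The large subunit forms the peptide bond and holds the exit tunnel, and the small subunit binds the mRNA and reads its codons. A part of the proteins descend from the bacterial ribosome, and the rest were added in the mitochondrion. Cardiomyocytes are rich in mitochondria and express these genes strongly.

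The promoters of the members with the smallest p in each family are shown first, because motifs in such windows are counted for all members further on. Each window holds 250 bases before and 50 bases from the RefSeq transcription start onwards (GRCm38.p6), written 5′ to 3′ on the strand of the gene. Capitals mark matches to the motifs counted below. Mrpl2 and Mrpl57 stand for the Mrpl genes (chr17:46645979-46646278 and chr14:57825989-57826288, both plus strand). Mrps15 (chr4:126046678-126046977, plus strand) and Mrps25 (chr6:92183974-92184273, minus strand) stand for the Mrps genes. The window of Mrps11 (chr7:78782881-78783180, plus strand) was added after its values were seen, because it starts head-to-head with a second member, Mrpl46.
Mrpl2: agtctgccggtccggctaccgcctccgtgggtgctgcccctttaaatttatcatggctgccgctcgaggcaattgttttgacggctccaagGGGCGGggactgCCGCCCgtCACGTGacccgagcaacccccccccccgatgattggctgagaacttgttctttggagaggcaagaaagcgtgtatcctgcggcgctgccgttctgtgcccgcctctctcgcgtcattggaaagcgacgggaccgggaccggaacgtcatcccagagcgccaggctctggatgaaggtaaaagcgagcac
Mrpl57: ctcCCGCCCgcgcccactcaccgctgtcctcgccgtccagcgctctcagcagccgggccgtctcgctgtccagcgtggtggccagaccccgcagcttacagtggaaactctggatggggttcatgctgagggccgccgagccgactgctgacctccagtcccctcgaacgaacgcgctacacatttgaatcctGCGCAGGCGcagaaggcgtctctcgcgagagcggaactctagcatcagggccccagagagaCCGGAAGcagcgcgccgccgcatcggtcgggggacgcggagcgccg
Mrps15: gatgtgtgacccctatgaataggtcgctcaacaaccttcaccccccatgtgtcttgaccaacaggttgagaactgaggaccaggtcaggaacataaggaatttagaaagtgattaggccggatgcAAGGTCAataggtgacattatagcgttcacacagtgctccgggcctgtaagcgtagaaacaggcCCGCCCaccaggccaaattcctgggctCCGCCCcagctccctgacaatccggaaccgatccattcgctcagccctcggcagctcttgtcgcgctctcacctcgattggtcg
Mrps25: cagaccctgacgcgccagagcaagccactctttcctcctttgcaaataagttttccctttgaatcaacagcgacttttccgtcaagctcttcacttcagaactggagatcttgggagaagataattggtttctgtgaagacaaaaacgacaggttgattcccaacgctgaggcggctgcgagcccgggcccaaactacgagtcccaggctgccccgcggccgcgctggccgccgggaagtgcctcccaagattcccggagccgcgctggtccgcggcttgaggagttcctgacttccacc
Mrps11: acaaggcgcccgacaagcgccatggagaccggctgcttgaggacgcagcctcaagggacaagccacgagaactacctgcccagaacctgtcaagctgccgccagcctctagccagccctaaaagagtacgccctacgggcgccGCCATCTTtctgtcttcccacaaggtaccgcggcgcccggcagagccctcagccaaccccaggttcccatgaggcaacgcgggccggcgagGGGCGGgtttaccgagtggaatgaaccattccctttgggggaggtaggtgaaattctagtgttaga
The window of Mrpl57 held an NRF1 match that began 57 bases before the start and an ETS match from base 5 of the transcript, beside an SP1 match. The windows of Mrpl2 and Mrps15 each held 2 SP1 matches, beside an E-box in Mrpl2 and an ERR match in Mrps15. Mrps11 held a YY1 match, which began 107 bases before its start, and an SP1 match. None of the 8 motifs was found in the window of Mrps25.

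Libraries held 14863568 to 17581220 counts on genes, and the members took 0.288% to 0.338% of these in NTG and 0.347% to 0.377% in TG. The unit used for levels is CPM, counts scaled to a common library size with TMM factors. Mouse Hint2 had 793, 828 and 859 counts in the TG libraries, 545 and 559 in NTG 2 and NTG 3, and 12 in the library labelled NTG 1. That count goes against the label of NTG 1. The study also made HINT2-KO mice, which are not analysed here, and the genotype of the heart behind this library cannot be settled from the files. Values that include NTG 1 may thus not be those of NTG hearts alone, and the main counts, medians and calls are also given without it. Defining markers of cardiomyocytes were present in all 6 libraries, and none of the 8 was at 0. All 8 had a higher fitted level in TG, and their summed level was 20493 to 33441 CPM in NTG and 32514 to 39691 CPM in TG. All 8 fibroblast markers were lower in TG, at a sum of 4709 to 10852 CPM in NTG and 2317 to 4017 CPM in TG. All 6 leukocyte markers were lower as well (691 to 1219 CPM in NTG, 469 to 668 CPM in TG), as were all 5 erythroid markers (1310 to 2245 and 762 to 908 CPM), and none of these was at 0. Endothelial markers went both ways, with 2 higher and 4 lower (2018 to 2368 CPM in NTG, 2039 to 2253 CPM in TG). So did those of smooth muscle and pericytes, with 3 higher and 2 lower (1124 to 1463 and 1236 to 1493 CPM). The part of cell composition in the values below was not tested. In bulk tissue, more cells of a type and more RNA per cell cannot be told apart.

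Nearly all members were somewhat higher in TG hearts, but none passed edgeR's test when all 6 libraries were used. Of the 77 members with enough counts to be tested, 73 had a higher fitted level in TG and 4 a lower one, where 48.7% of all 14774 genes tested were higher. Without NTG 1, 75 of the 77 members were higher, where 7219 of the 14774 genes were. The median log2 fold change (TG minus NTG) was 0.28 for the 48 Mrpl genes tested and 0.28 for the 29 Mrps genes, against -0.0081 over all genes. It ranged from -0.21 in Mrps18b to 0.63 in Mrpl14. A call needed a log2 fold change beyond 0.5 and a Benjamini-Hochberg adjusted p below 0.05 in edgeR's quasi-likelihood test over all genes. By this rule 0 members were called higher and 0 lower, as were 0% of all genes in either direction. The smallest adjusted p of a member was 0.196. At an unadjusted p under 0.05, 36 members were higher, 22 Mrpl and 14 Mrps, where 8.83% of all genes were higher, and 0 were lower, where 9.76% were lower. Without TG 1 the count of higher members was 19 (9 Mrpl and 10 Mrps), and without NTG 1 it was 47 (30 and 17). Of all genes, 4.98% and 13.7% were higher at this p in these 2 fits. All 3 TG libraries lay above all 3 NTG libraries for 29 members (37.7%), against 11.2% of all genes, and no member showed the opposite order, against 12.3%.

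The call depended on the tool and on NTG 1. DESeq2, run on the same genes and thresholds, called 6 members higher, Mrpl2, Mrpl42, Mrps15, Mrps24, Mrps28 and Mrps36, and 0 lower. It called 1.54% of all genes higher and 2.4% lower. Without NTG 1, DESeq2 called 21 members higher, where 5.92% of all genes were called higher, and 0 members lower. With limma-voom 0 members were called in either direction, as were 0% of all genes, and 37 members were higher at an unadjusted p under 0.05, where 9.45% of all genes were. Without NTG 1, edgeR called 13 members higher and 0 lower, where 2.67% of all genes were called higher and 2.85% lower. These 13 comprised all 6 genes of the DESeq2 call, together with Mrpl3, Mrpl14, Mrpl41, Mrpl55, Mrpl57, Mrps18a and Mrps35. The median log2 fold change of the members was 0.36 without NTG 1 and 0.19 without NTG 2.

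**Figure D1:**
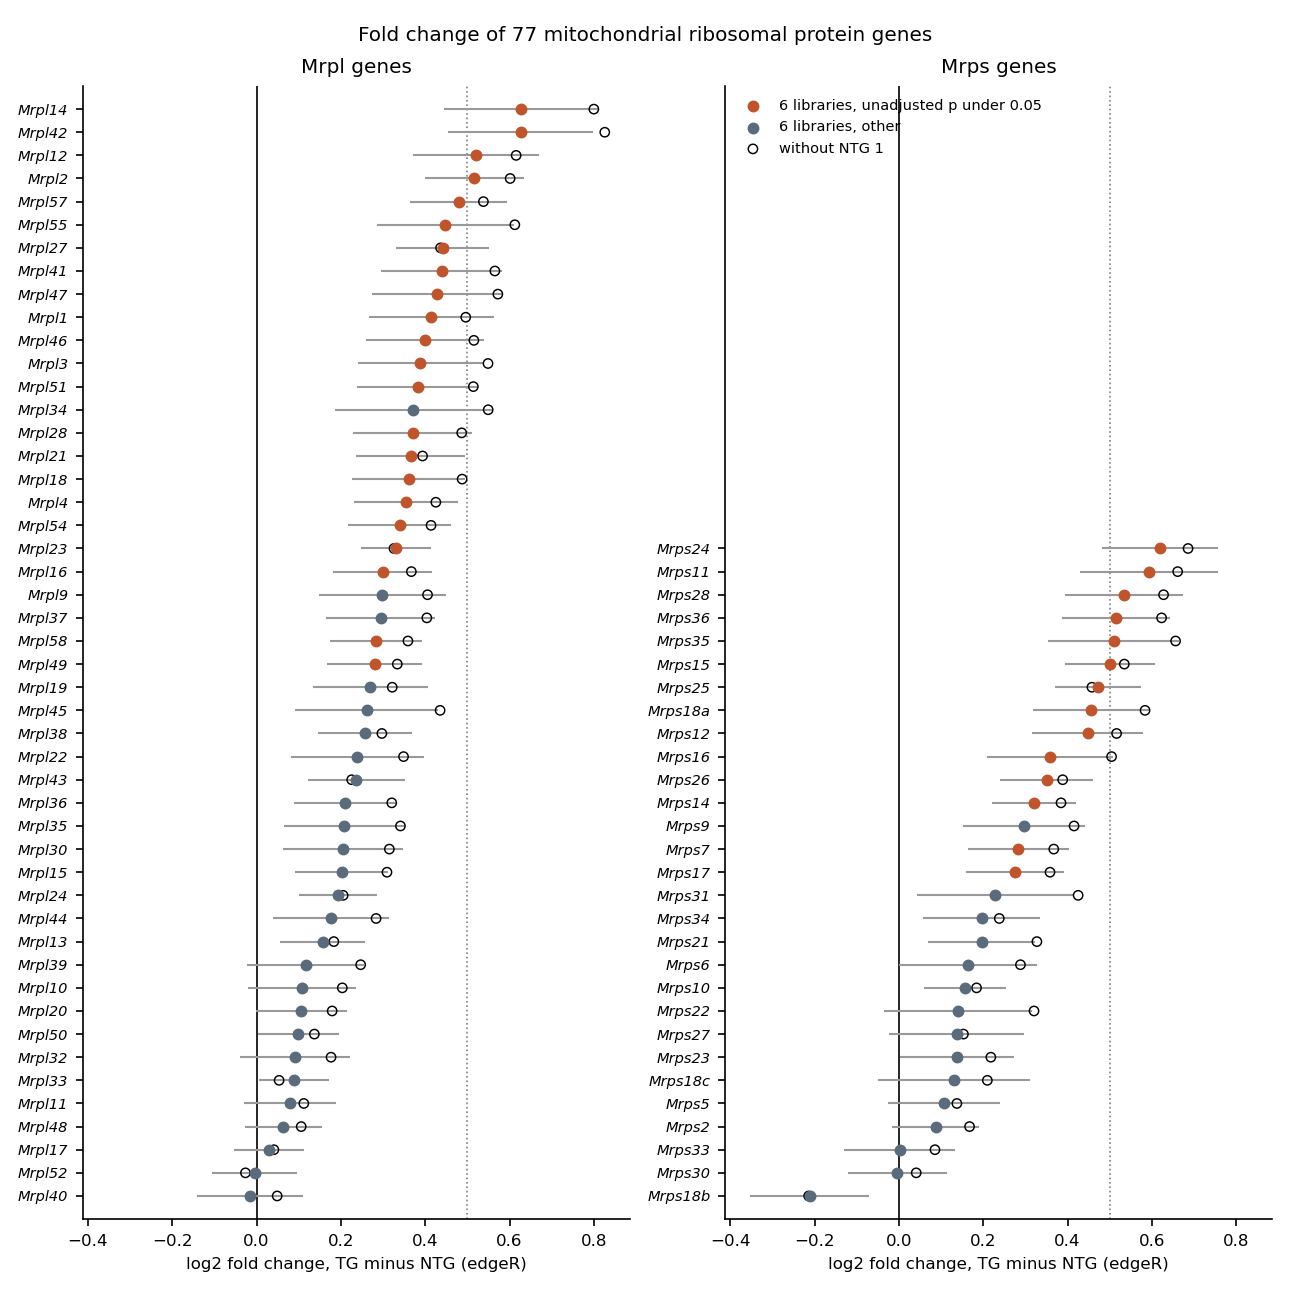
Log2 fold change (TG minus NTG) of the 48 Mrpl and 29 Mrps genes tested, with bars of 1 standard error derived from edgeR's F statistic. Open circles give the value without NTG 1, the dotted line is the threshold of 0.5, and 73 of the 77 points lie above 0.

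The members tended to be high or low together in a library. For each gene, the mean log2 CPM over the 6 libraries was subtracted from its value in each library. Averaged over the 77 members, this deviation was -0.31 in NTG 2, -0.13 in NTG 3 and 0.020 in NTG 1. In TG 2 it was 0.0050, in TG 3 0.20 and in TG 1 0.22. The groups therefore overlapped, with NTG 1 just above TG 2. The summed cardiomyocyte markers put the 6 libraries in the same order, from 20493 CPM in NTG 2 to 39691 CPM in TG 1, with TG 2 at 32514 and NTG 1 at 33441 CPM. The part of this marker level in the members' values was not tested.

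NTG 2 was the lowest of all libraries for 66 of the 77 members. The highest value was in TG 1 for 40 members and in TG 3 for 28. TG 2 was the lowest TG library for 64. NTG 1 lay above both other NTG libraries for 61 members and above TG 2 for 43. Without it, all TG libraries lay above the other two NTG libraries for 57 members, against 23.4% of all genes tested. Both name families followed the same course, and the summed CPM of Mrpl was 2.04 to 2.13 times that of Mrps in every library. The correlation of a member with the mean of the other members over the 6 libraries, which share depth and scaling, had a median r of 0.92, and it was negative for 2 members, Mrpl52 (r = -0.28) and Mrps18b (r = -0.45). No r of other genes is set beside it. The first principal component of all genes tested ordered the libraries nearly alike. It was 55.7 in NTG 2, 29.3 in NTG 3 and -5.08 in NTG 1, and -10.7 in TG 2, -32.7 in TG 1 and -36.5 in TG 3.

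**Figure D2:**
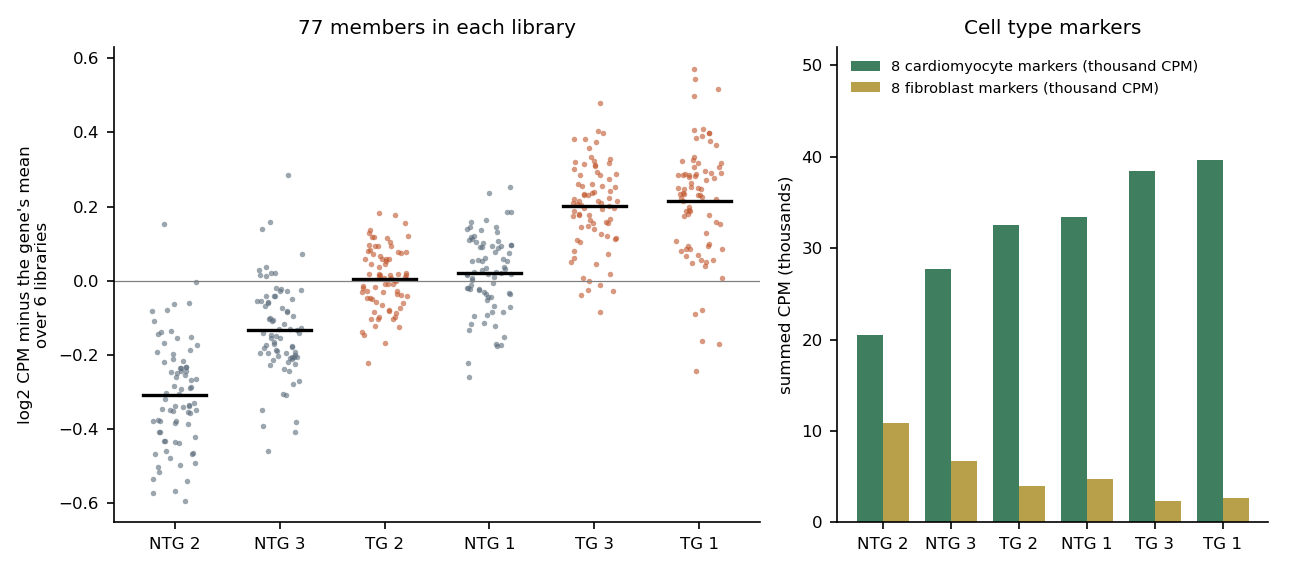
Left, log2 CPM of each of the 77 members minus its own mean over the 6 libraries, with a bar at the library's mean, from -0.31 in NTG 2 to 0.22 in TG 1. Right, summed CPM of 8 cardiomyocyte and 8 fibroblast markers in the same libraries, where the cardiomyocyte sum rises in the same order from 20493 to 39691 CPM.

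Among the Mrpl genes whose proteins have a bacterial counterpart, all 30 were higher in TG, with a median log2 fold change of 0.30 (0.36 without NTG 1 and 0.19 without NTG 2). Mrpl2, which lies close to the peptidyl transferase centre, had the smallest p of the family. Its level was 49.0, 37.1 and 45.4 CPM in NTG 1, NTG 2 and NTG 3, and 64.6, 59.1 and 64.3 CPM in TG 1, TG 2 and TG 3. The groups did not overlap. The log2 fold change was 0.52 (standard error 0.12, edgeR adjusted p = 0.196), with an adjusted p of 0.0218 by DESeq2 and of 0.0318 by edgeR without NTG 1. Mrpl23, which sits at the mouth of the exit tunnel, was 39.2, 40.0 and 38.8 CPM in NTG and 50.3, 47.1 and 51.0 CPM in TG. Its difference was smaller, at a log2 fold change of 0.33, but the libraries of a group lay close together. Mrpl27, whose bacterial counterpart reaches towards the peptidyl transferase centre, was 20.6, 20.4 and 20.9 CPM in NTG and 25.5, 27.2 and 31.3 CPM in TG, a log2 fold change of 0.44. Without NTG 1 the log2 fold changes were 0.33 and 0.44 (edgeR adjusted p = 0.0837 and 0.0788).

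Mrpl12, the stalk protein that contacts translation factors, was 68.2, 51.4 and 61.2 CPM in NTG and 101.2, 72.7 and 85.3 CPM in TG, without overlap. The log2 fold change was 0.52 (standard error 0.15, edgeR adjusted p = 0.196) and 0.62 without NTG 1 (edgeR adjusted p = 0.0581). Of its exonic bases, 200 overlap the antisense gene Gm16755, and the strand setting of the counting is not given in the sources used here. Mrpl14, which faces the small subunit, had the highest fold change of the family, 0.63 (standard error 0.18, edgeR adjusted p = 0.197). Its values were 41.4, 28.5 and 31.1 CPM in NTG and 60.3, 41.1 and 54.7 CPM in TG, so NTG 1 lay just above TG 2. Without NTG 1 the log2 fold change was 0.80 (edgeR adjusted p = 0.0396). Mrpl55 in the central protuberance was 58.2, 37.2 and 47.8 CPM in NTG and 63.3, 59.9 and 71.9 CPM in TG, without overlap, a log2 fold change of 0.45 (0.61 without NTG 1 and 0.30 without NTG 2).

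Of the Mrpl genes whose proteins lack a bacterial counterpart, 16 of the 18 tested were higher, with a median of 0.27 (0.35 without NTG 1 and 0.18 without NTG 2). Mrpl42, a protein found only in mitochondrial ribosomes, was 157, 105 and 111 CPM in NTG and 197, 166 and 213 CPM in TG. The groups did not overlap, and NTG 1 was closer to TG 2 than to the other NTG libraries. The log2 fold change was 0.63 (standard error 0.17, edgeR adjusted p = 0.196) and 0.83 without NTG 1 (edgeR adjusted p = 0.0221). The small protein Mrpl57 was 27.7, 23.1 and 25.9 CPM in NTG and 39.3, 32.6 and 34.9 CPM in TG, a log2 fold change of 0.48 (DESeq2 adjusted p = 0.0383). Mrpl58, a peptidyl-tRNA hydrolase that was built into the large subunit and releases stalled chains, ranged from 27.4 to 32.6 CPM in NTG and from 33.3 to 38.5 CPM in TG. Its log2 fold change was 0.28 (standard error 0.11, edgeR adjusted p = 0.230).

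The lowest fold changes of the Mrpl genes lay near 0. Mrpl40 of the central protuberance was 24.3, 19.3 and 23.2 CPM in NTG and 23.4, 20.3 and 22.4 CPM in TG, with a log2 fold change of -0.016 (standard error 0.12, and -0.11 to 0.049 with a library left out). Mrpl52 was 37.4, 42.6 and 35.4 CPM in NTG and 39.9, 37.6 and 37.7 CPM in TG, with a value of -0.0042 (standard error 0.10, and -0.063 to 0.076 with a library left out). Mrpl17, which borders the exit tunnel, was at 0.030 (standard error 0.083, and -0.0015 without NTG 2). Mrpl53, a protein of the stalk base, had 0 counts in all 6 libraries and was not tested. Of its 790 exonic bases, 695 overlap the gene Gm42688 on the same strand, and whether the counting left such reads out was not tested.

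Among the genes with an Mrps name, 17 of 18 whose proteins have a bacterial counterpart, Mrps18a included, were higher (median 0.29). That median was 0.38 without NTG 1 and 0.21 without NTG 2. Of the 11 others, which include Mrps30 and Mrps36, 10 were higher (median 0.20). The latter median was 0.32 without NTG 1, 0.31 without TG 2, 0.13 without TG 1 and 0.072 without NTG 2. Mrps15, whose bacterial counterpart binds the ribosomal RNA early in assembly, had the smallest p of all members. It was 35.9, 33.3 and 33.4 CPM in NTG and 54.0, 42.9 and 48.5 CPM in TG, so all NTG libraries lay below all TG libraries. The log2 fold change was 0.50 (standard error 0.11, edgeR adjusted p = 0.196), with an adjusted p of 0.019 by DESeq2 and of 0.0457 by edgeR without NTG 1. Mrps24, at the entry of the mRNA channel, showed the highest fold change of the family, 0.62 (standard error 0.14, DESeq2 adjusted p = 0.0129), and 0.69 without NTG 1 (edgeR adjusted p = 0.0431). Its values were 55.8, 49.4 and 47.9 CPM in NTG and 90.1, 63.7 and 81.5 CPM in TG. A stretch of 226 exonic bases is shared with Urgcp on the same strand.

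Mrps28 was 29.4, 21.7 and 26.96 CPM in NTG and 39.0, 32.9 and 41.0 CPM in TG, a log2 fold change of 0.53 (standard error 0.14, DESeq2 adjusted p = 0.0494), and 0.63 without NTG 1 (edgeR adjusted p = 0.0466). Mrps11, on the platform that faces the mRNA exit, was 13.6, 11.4 and 12.2 CPM in NTG and 22.5, 15.3 and 18.3 CPM in TG. Its log2 fold change was 0.59 (standard error 0.16, edgeR adjusted p = 0.196). Mrps12, the protein of the decoding centre, ranged from 20.8 to 27.2 CPM in NTG and from 30.3 to 35.9 CPM in TG, a log2 fold change of 0.45. Mrps25, without a bacterial counterpart, was 21.8, 21.3 and 23.4 CPM in NTG and 30.3, 29.1 and 32.9 CPM in TG. Its log2 fold change of 0.47 was below the threshold, although the DESeq2 adjusted p was 0.0218. Of its 6576 exonic bases, 4590 overlap Nr2c2 on the other strand, and without the strand setting the reads of these 2 genes cannot be told apart.

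Mrps36 carries a ribosomal name but is known as a subunit of the 2-oxoglutarate dehydrogenase complex of the citrate cycle. It was 35.5, 29.1 and 28.2 CPM in NTG and 48.8, 38.9 and 44.8 CPM in TG. The log2 fold change was 0.52 (standard error 0.13, edgeR adjusted p = 0.196), and it was among the members called by DESeq2 (adjusted p = 0.0383) and by edgeR without NTG 1 (adjusted p = 0.0335). Mrps30, named as a small-subunit gene although its protein lies in the large subunit, was 20.8 to 23.2 CPM in NTG and 20.3 to 24.4 CPM in TG, with a log2 fold change of -0.0036 (standard error 0.12, and -0.095 to 0.044 with a library left out).

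The paralogs Mrps18a, Mrps18b and Mrps18c descend from 1 bacterial protein and take different places in the ribosome, Mrps18a in the large subunit and the other two in the small one. Mrps18a was 50.6, 37.1 and 41.5 CPM in NTG and 65.7, 52.2 and 59.1 CPM in TG, without overlap, and had a log2 fold change of 0.45 (standard error 0.14, edgeR adjusted p = 0.203), and 0.58 without NTG 1 (edgeR adjusted p = 0.0395). Mrps18b was 15.4, 13.5 and 17.4 CPM in NTG and 12.04, 14.4 and 13.5 CPM in TG, and had the lowest fold change of all members, -0.21 (standard error 0.14, edgeR adjusted p = 0.434, and -0.12 without NTG 3), also without NTG 1. Mrps18c was 11.1, 8.71 and 10.1 CPM in NTG and 9.16, 10.2 and 13.3 CPM in TG, with a value of 0.13 (standard error 0.18), which moved between -0.037 (without TG 3) and 0.24 (without TG 1) with a library left out. The groups overlapped for Mrps18b and Mrps18c, and the difference between the paralogs itself was not tested. Mrps18b shares 638 exonic bases with the antisense gene Gm16279, and Mrps18c shares 250 with Gm43511 on the same strand.

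**Figure D3:**
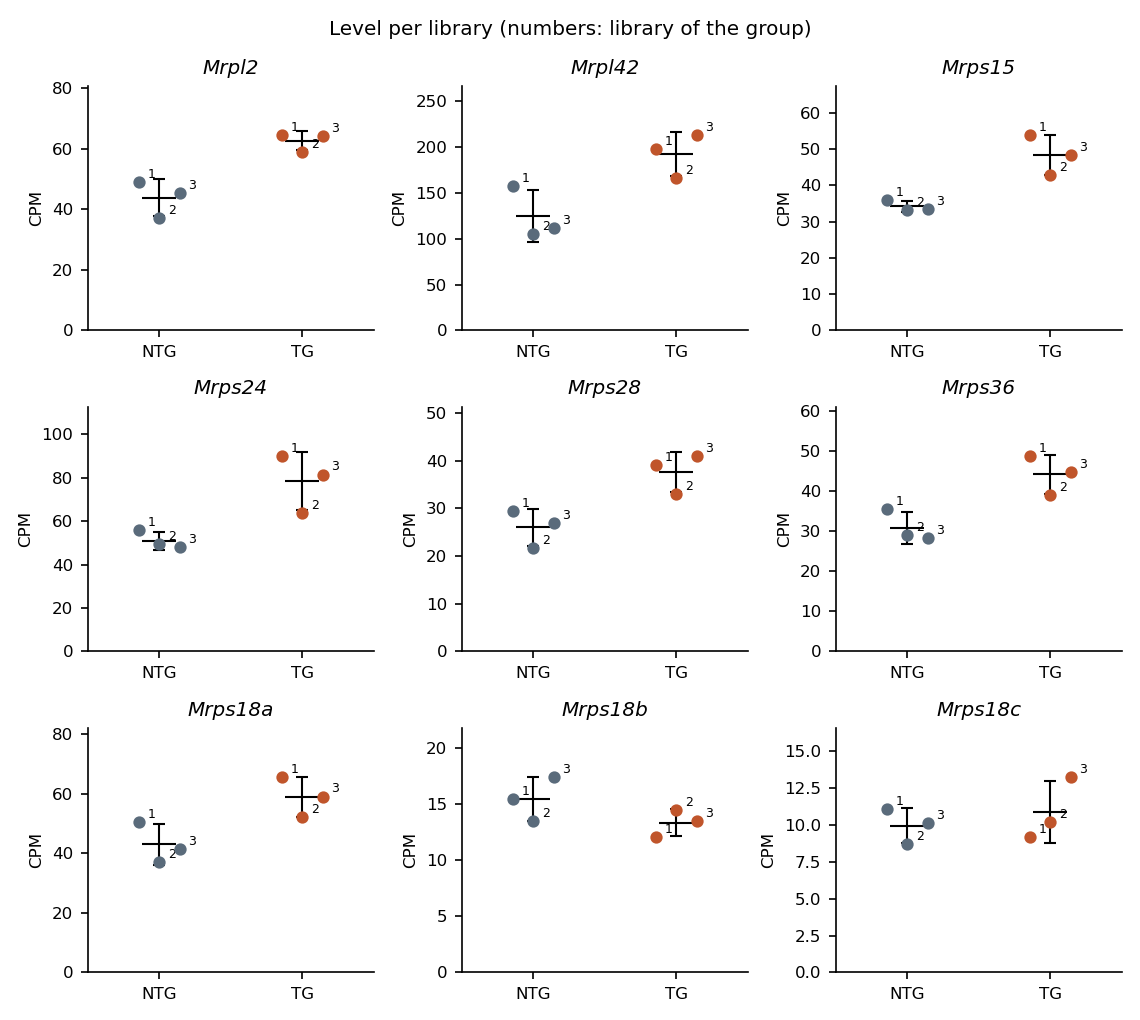
CPM in each library of the 6 members called by DESeq2 and of the 3 Mrps18 paralogs, with the mean and SD of each group of 3 as black bars and axes that start at 0. The groups are apart in the upper 6 panels and in Mrps18a, and they overlap for Mrps18b (12.04 to 17.4 CPM) and Mrps18c (8.71 to 13.3 CPM).

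Levels were compared between genes per length, as RPKM, which is CPM per kilobase of the gene length in the table, averaged over the 6 libraries. The members spanned a 32.9-fold range, from 2.85 RPKM in Mrps10 to 93.7 RPKM in Mrps23, with a median of 18.1 RPKM in Mrpl and 11.3 RPKM in Mrps. Mrps23, Mrps21 (90.7 RPKM) and Mrps24 (44.2 RPKM) were the highest of the Mrps genes, and Mrpl34 (85.2 RPKM), Mrpl28 (61.8 RPKM) and Mrpl55 (54.9 RPKM) those of the Mrpl genes. Mrps23 was 116 to 155 CPM in NTG and 143 to 172 CPM in TG, with a log2 fold change of 0.14, and that of Mrps21 was 0.20, with overlap in both. These values were 0.22 and 0.33 without NTG 1, 0.022 and 0.12 without NTG 2, and that of Mrps23 was 0.042 without TG 1. Mrps24 had the highest fold change of its family (0.62). Mrpl34 had a log2 fold change of 0.37 (standard error 0.19) and Mrpl28 of 0.37 (standard error 0.14), and NTG 1 overlapped the TG range in both. That of Mrpl34 was 0.55 without NTG 1 and 0.19 without NTG 2. For 73 of the 78 members the gene length in the table was the sum of the exons of all transcripts in GENCODE vM21, and for the others it differed from that sum. On the length of the principal transcript, Mrpl42 was highest at 238 RPKM and Mrps25 lowest at 4.36 RPKM, so the order of levels rests on the length used.

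By place in the large subunit, all 4 tested genes of the stalk and its base were higher (median 0.22), as were 7 of 8 of the central protuberance (median 0.32) and all 6 around the exit tunnel (median 0.25). Without NTG 1 these medians were 0.31, 0.40 and 0.34, and without NTG 2 they were 0.15, 0.25 and 0.15. The proteins Dap3, Chchd1, Aurkaip1, Ptcd3 and Gadd45gip1 belong to the mitochondrial ribosome but carry other names. All 5 were higher, with log2 fold changes of 0.15 in Aurkaip1 to 0.28 in Gadd45gip1 around a median of 0.22, and the unadjusted p was under 0.05 for 0 of them. Without NTG 1 it was under 0.05 for 3 and without TG 2 for 1, all higher, where 13.7% and 9.08% of all genes were higher at this p, against 8.83% with all libraries. Without NTG 2 the median was 0.12, the 5 ranged from 0.10 in Ptcd3 to 0.22 in Chchd1, and Gadd45gip1 was at 0.17. Dap3, a GTP-binding protein of the small subunit, was 71.1, 54.0 and 60.9 CPM in NTG and 76.8, 63.9 and 71.9 CPM in TG, so the groups overlapped.

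Most genes that act with the mitochondrial ribosome also had a higher fitted level in TG. The list of translation factors, mitochondrial aminoacyl-tRNA synthetases and factors of ribosome assembly held 62 genes, of which 60 were tested. Of these 50 were higher in TG, the median was 0.21, and 6 (10%) were higher at an unadjusted p under 0.05, against 8.83% of all genes. The count was 20 without NTG 1, where 13.7% of all genes were higher at this p, 11 without TG 2, where 9.08% were, and 2 without each of the other libraries, where 4.98% to 5.35% were. The median was 0.27 without NTG 1 and 0.089 without NTG 2. The smallest p belonged to Fars2, the mitochondrial phenylalanyl-tRNA synthetase, at 38.7, 27.7 and 37.0 CPM in NTG and 48.7, 44.2 and 50.7 CPM in TG (log2 fold change 0.48, edgeR adjusted p = 0.196). Yars2, the tyrosyl-tRNA synthetase, had a log2 fold change of 0.48 (edgeR adjusted p = 0.211), Mrm2, a methyltransferase of the large ribosomal RNA, of 0.68 (edgeR adjusted p = 0.213), and Oxa1l, the insertase that receives new chains at the inner membrane, of 0.29 (edgeR adjusted p = 0.231, and 0.19 without NTG 2).

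Proteins of the cytosolic ribosome, taken as genes named Rpl or Rps, were centred on no change. Of 74 tested, 35 were higher and 39 lower, with a median of -0.0097 (-0.057 without NTG 1, 0.081 without NTG 2 and 0.018 without TG 2). The 13 mRNAs that the mitochondrial ribosome translates had a median of 0.45, and 12 of them were higher. The median was 0.71 without NTG 1, 0.29 without NTG 2 and 0.27 without TG 1. The fold changes fell apart into 2 ranges beside mt-Nd3 (-0.25), with 0.29 to 0.47 in 7 mRNAs and 1.43 to 2.75 in mt-Co2, mt-Nd4l, mt-Atp6, mt-Atp8 and mt-Co3. The latter 5 were counted at far lower levels. Their mean in NTG was 1.04 CPM (mt-Atp8) to 354 CPM (mt-Co2), and that of mt-Nd3 was 104 CPM. In the 7 mRNAs it was 3629 CPM (mt-Nd6) to 64035 CPM (mt-Co1). Without NTG 1, mt-Nd3 was at 0.072, so that all 13 were higher, and the 7 mRNAs were at 0.49 to 0.75. Without TG 1, mt-Nd3 was at 0.037 and the 7 mRNAs at 0.068 to 0.38, and without NTG 2 the latter were at 0.15 to 0.35. Of the other 5, mt-Nd4l was at 1.12 and mt-Co2 at 0.99 without TG 1, in which mt-Nd4l had 618 CPM against 183 and 182 CPM in TG 2 and TG 3. Genes with copies in the nuclear genome are less certain among these mRNAs, since the handling of reads with several matches is not given in the sources used here. All these lists share the same 6 libraries, so their medians are not independent of each other.

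**Figure D4:**
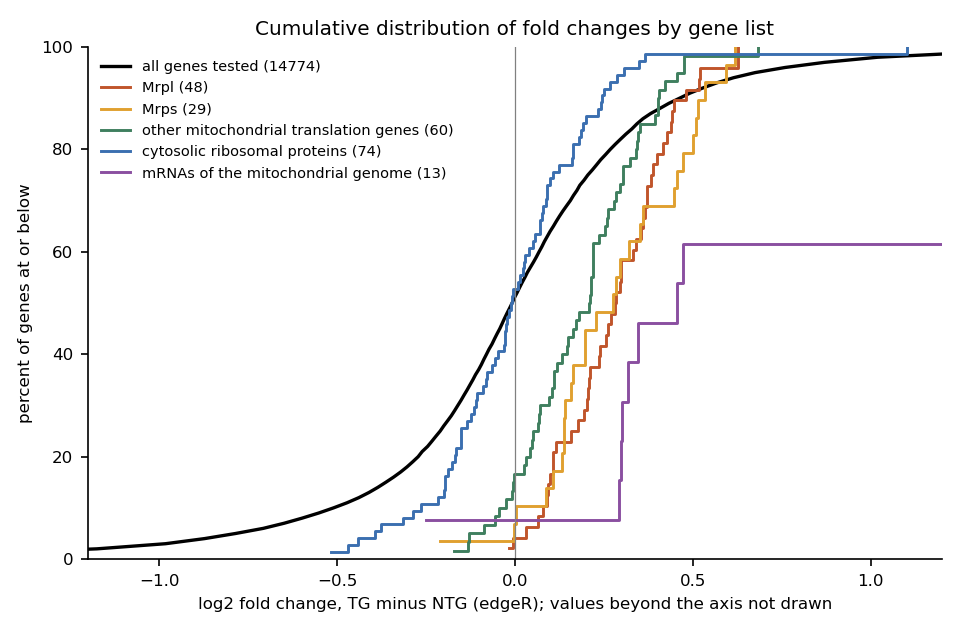
Percent of genes at or below each log2 fold change (TG minus NTG) for Mrpl, Mrps, 60 other mitochondrial translation genes, 74 cytosolic ribosomal protein genes, 13 mitochondrial mRNAs and all 14774 genes tested. The Mrpl and Mrps curves lie to the right of the curve of all genes over most of the range and cross 50% at 0.28 each, and the cytosolic ribosomal proteins cross it at -0.0097.

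The members are short genes, with a median principal transcript of 1316 bases against 3068 for all protein-coding genes tested. The shortest members had the highest median. The 26 members with the shortest transcripts (418 to 1031 bases) had a median log2 fold change of 0.36, and the 26 next and the 25 longest had 0.27 each. Without NTG 1 these medians were 0.43, 0.35 and 0.36, and the middle one was 0.18 without NTG 2. Protein-coding genes in the same 3 length classes had medians of 0.16, 0.046 and -0.032. With an offset for gene length in the fit, the median of the members was 0.24.

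Several members start close to another gene on the opposite strand, an arrangement in which 1 stretch of DNA can serve both directions. A head-to-head neighbour within 1000 bases was found for 33 of the 77 members (42.9%), 24 Mrpl and 9 Mrps, against 15.2% of the 13196 protein-coding genes tested. In 29 cases the neighbour was tested too. Of these neighbours 24 were higher in TG, where 48.7% of all genes tested were. Their median log2 fold change was 0.12 (0.078 without NTG 1 and 0.19 without TG 2). Mrpl46 and Mrps11 are each other's neighbour, 412 bases apart on chromosome 7, with log2 fold changes of 0.40 and 0.59. Both are thus members that are also counted among the 29 neighbours. Mrpl36 starts 29 bases from Ndufs6, a complex I subunit, and their log2 fold changes were 0.21 (0.32 without NTG 1) and 1.03. Mrpl47 and Ndufb5, another complex I subunit, were at 0.43 and 0.40. Mrpl57 was at 0.48 while its neighbour Ska3, 49 bases away, was at -0.045 (-0.45 without NTG 2 and 1.13 without NTG 3). Over the 29 cases, the neighbours ranged from -0.24 (Rab6a, next to Mrpl48) to 1.03 (Ndufs6). Exons of such pairs can overlap on opposite strands, by 173 bases in Mrpl46 and Mrps11 and by 616 in Mrpl47 and Ndufb5. Without the strand setting, reads from these overlaps cannot be told apart.

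A RefSeq promoter window was at hand for 68 of the 77 members tested, and 8 motifs were searched in these letters on both strands. The ETS motif CCGGAAG, bound by factors such as GABPA, was found for 25 members (36.8%), against 19.1% of 10347 protein-coding genes tested and 9.93% of all 27025 genes with a window. The NRF1 motif GCGCANGCG was found for 16 members (23.5%, against 14.7% and 7.03%) and the YY1 motif AAGATGGC for 12 (17.6%, against 4.97% and 3.19%). By family, the NRF1 share was 28.6% in Mrpl and 15.4% in Mrps, close to that of the tested genes. The ETS share was 33.3% in Mrpl and 42.3% in Mrps, and the YY1 share 14.3% and 23.1%. NRF1, GABPA and YY1 are known for regulating nuclear genes of mitochondria. The SP1 motif GGGCGG was found for 34 members (50%), which is below the 67.9% of the tested genes and above the 38.2% of all genes. Its share was 40.5% in Mrpl and 65.4% in Mrps, the latter close to that of the tested genes. The ERR motif AAGGTCA was found for 4 members (5.88%, against 3.9% and 5.38%), the CRE TGACGTCA for 2 (2.94%, against 3.49% and 2.03%), the E-box CACGTG for 5 (7.35%, against 11.6% and 8.09%) and the TATA box TATAAA for 5 (7.35%, against 9.16% and 15.7%). The median GC content of the windows was 58.5% in members, 60.7% in tested genes and 52.7% in all genes. A match is a stretch of letters and not a bound site.

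**Figure D5:**
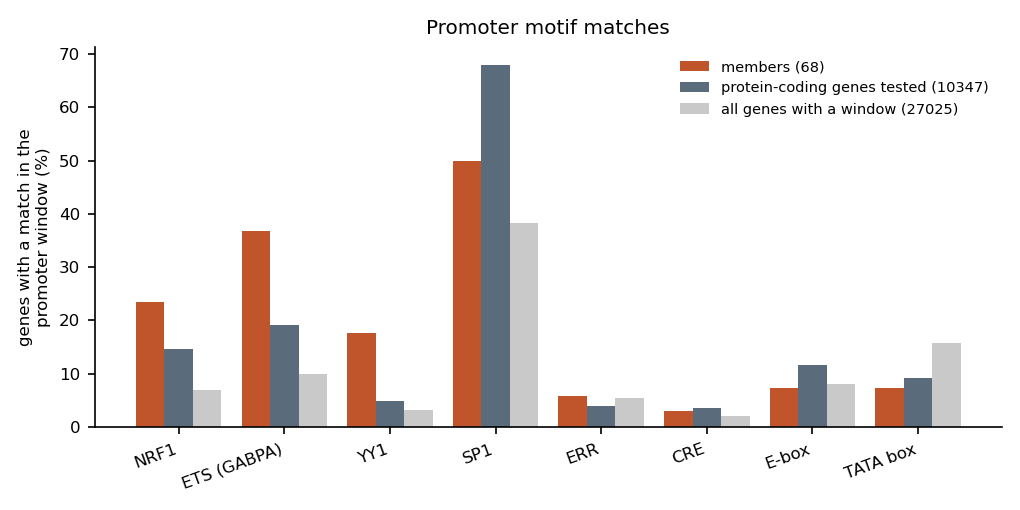
Share of genes with at least 1 match to each of 8 motifs in the promoter window, for 68 members, 10347 protein-coding genes tested and all 27025 genes with a window. Members exceed both other sets for the ETS (36.8%), NRF1 (23.5%), YY1 (17.6%) and ERR (5.88%) motifs, lie between them for SP1 (50%) and CRE (2.94%), and lie below both for the E-box and the TATA box (7.35% each).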

How the data were processed

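The values the authors deposited are raw counts of reads per gene in 6 libraries, 1 per heart, without normalization. The authors prepared poly-A RNA-seq libraries, cleaned and mapped the reads, predicted transcripts with StringTie (v1.3.3b) and counted reads with featureCounts (v1.5.0-p3). The submitters' processing notes also name HISAT2, DESeq2 and GRCh38, a human build, whereas positions in the table are those of mouse GRCm38 (GENCODE release vM21), where 73 of 78 members had identical coordinates. Strand setting and multimapping are not given in the sources used here, and neither is a sequencing batch. 0 columns of sample values were left unmatched.

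Libraries were grouped by their labels. The fit used edgeR 4.0.16 under R 4.3.3 (TMM, filterByExpr, glmQLFit with robust estimates, glmQLFTest), and p-values were adjusted by Benjamini-Hochberg over 14774 genes. A call needed a log2 fold change beyond 0.5 in size with an adjusted p below 0.05, and no covariate was used. The standard error of an edgeR value is its absolute log2 fold change divided by the square root of the test's F statistic. Log2 CPM used a prior count of 2. Of each family, the genes named were the 6 with the smallest p, the 2 lowest and 2 highest by fold change and the 3 highest per length, beside Mrps18a, Mrps18b, Mrps18c, Mrps30, Mrps36, Mrpl58, Mrpl12, Mrps12, members without enough counts, the 5 mitoribosomal proteins with other names and the 4 other translation genes with the smallest p. Others named, such as Mrpl17, Mrps10 and the neighbouring genes, were chosen after their values were seen. Members, lists and tests were chosen with earlier results of these data known. Lists were written from recalled membership. Alternatives were RLE, upper-quartile and library-size scaling, other filters, DESeq2 1.42.0, limma-voom 3.58.1, non-robust estimates, a length offset (loess span 0.3), a replicate block, an adjusted p alone and each library left out. DESeq2 without NTG 1 was added after seeing the data.

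Each tool was tested on simulated counts for this comparison over 14615 genes. In these counts edgeR recovered 92.7% of genes changed by 1.5 on the log2 scale and 4.08% of those changed by 0.5, and DESeq2 recovered 87.5% and 5.1%. In the measured libraries edgeR called 0 of 14774 genes. There mt-Co3, at a log2 fold change of 2.75, had an edgeR adjusted p of 0.196, the smallest of all genes tested. Whether the recovered shares hold for the measured libraries was not tested. Nothing in the labels says more of the replicates than 1 heart each, and p-values measure the spread between these hearts. No pair of libraries agreed within counting noise (chi-square per gene 15.6 to 133). Protein sequences were not used here.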

Additional observations from a re-analysis of the deposited data

How the results depend on the processing

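The medians of Mrpl and Mrps stayed between 0.19 and 0.36 and between 0.18 and 0.37 over all alternatives, and 0 members were called lower in any. The count of members called higher was 0 in the reported fit, 6 with DESeq2 (1.54% of all genes), 6 with no low-count filter (0.432%), 21 with DESeq2 without NTG 1 (5.92%), and 0 to 13 when each library was left out in turn (13 without NTG 1, where 2.67% of all genes were called higher). The count at an unadjusted p under 0.05, reported as 36, ranged from 19 (without TG 1) to 47 (without NTG 1), with 20 without TG 3, 21 without NTG 2 and 22 without NTG 3. Of all genes, 8.83% were higher at this p in the reported fit, 4.98% without TG 1, 13.7% without NTG 1, 5.35% without TG 3, 5.08% without NTG 2 and 5.15% without NTG 3. The cause was not tested. Fold changes near 0 changed sign. That of Mrpl40 was 0.056 with DESeq2 without NTG 1 and -0.11 to 0.049 with a library left out. That of Mrpl52 was 0.00076 with DESeq2, 0.0013 with RLE and 0.00030 with protein-coding genes only, and -0.063 to 0.076 with a library left out. That of Mrps30 was 0.049 with DESeq2 without NTG 1, 0.0023 with DESeq2, 0.0017 with RLE, 0.0077 with the length offset, 0.0036 with the length offset and the replicate block, 0.0011 with protein-coding genes only, and -0.095 to 0.044 with a library left out. That of Mrps18c was -0.037 to 0.24 with a library left out. Of the other values of single named genes, 598 kept direction and side of an adjusted p of 0.05 and 47 fell below it.

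Replicate numbers are shared between the groups, but the deviations of same-numbered libraries correlated at 0.081, 0.17 and -0.25, so the numbers were not taken to pair hearts. With a replicate block 2 members were called higher (0.569% of all genes), and 2 with the block and the length offset (0.623%). With library-size scaling the median of all genes fell to -0.093 and that of the members to 0.19. Library depth did not differ between groups by more than it did within them.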

Other observations

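The list of other mitochondrial translation genes holds 3 groups, whose medians were not tested against each other. Translation factors had a median log2 fold change of 0.26, and 12 of 13 tested were higher in TG. The median was 0.39 without NTG 1 and 0.14 without NTG 2. The elongation factor Tufm, which brings aminoacyl-tRNA to the ribosome, was 177, 102 and 150 CPM in NTG and 205, 169 and 193 CPM in TG, so NTG 1 overlapped TG 2 (edgeR adjusted p = 0.303). Of the aminoacyl-tRNA synthetases, 18 of 22 were higher, with a median of 0.18 (0.26 without NTG 1 and 0.13 without NTG 2). Lars2, the leucyl-tRNA synthetase, spread most between libraries, from 109 to 259 CPM in NTG and from 98.3 to 281 CPM in TG, with a log2 fold change of -0.057 (-0.62 without TG 3 and 0.32 without NTG 2). Of the factors of assembly and rRNA modification, 20 of 25 were higher, with a median of 0.17 (0.26 without NTG 1 and 0.073 without NTG 2). Tufm and Lars2 were chosen after their values were seen.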
